A study of Mus musculus with 23 samples.

Results

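The 10 synaptotagmin genes Syt1, Syt2, Syt3, Syt4, Syt5, Syt6, Syt7, Syt9, Syt10 and Syt11 were followed in the hippocampus of mice fed alcohol with or without urolithin A. They were taken from a table of 19733 genes by symbol, and the family was chosen because Syt6 was lower in the urolithin A mice. All 10 were in the table and all 10 passed the filter on low values, at 0.1 FPKM on average over the mice (fragments mapped to a gene, divided by transcript length and by the size of the library), which left 15986 genes for testing. RNA was sequenced from 23 male wild-type C57BL/6J mice, acquired at 6 weeks of age and treated for 16 weeks, with a further 1 week of behavioral testing. The 9 Ctrl mice received the AIN93M control liquid diet and a daily gavage of 0.05% CMC-Na, the vehicle. The 7 EtOH mice received the ethanol version of that liquid diet and the same vehicle. The 7 EtOH-UA mice received the ethanol diet and urolithin A, a gut microbial product of ellagic acid, by gavage at 200 mg/kg/day. The design assigned 10 mice to each group. A group given urolithin A without ethanol was not analysed here.

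Synaptotagmins are vesicle membrane proteins whose paired C2 domains bind phospholipids and SNARE proteins and, in many members, calcium. On a rise in calcium they trigger or regulate the fusion of synaptic vesicles and dense-core vesicles with the plasma membrane. In hippocampal neurons, Syt1 drives the fast, synchronous release of glutamate and GABA, whereas Syt7 acts in slower asynchronous release, facilitation and vesicle replenishment. Members differ in calcium affinity and in the organelle they sit on, so the set expressed by a neuron shapes how its release follows firing.

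Promoter sequence is shown for Syt6, on which the choice of the family rests, and for Syt9 and Syt10, a pair of genes whose levels moved together across mice. Each stretch is the 200 bases before a RefSeq transcription start on GRCm38.p6, read 5′ to 3′ on the gene's own strand. The Syt6 stretch lies at chr3:103575045-103575244 on the plus strand, the Syt9 stretch at chr7:107370590-107370789 on the plus strand and the Syt10 stretch at chr15:89841861-89842060 on the minus strand. The annotated Syt6 gene begins just after its stretch, at 103575245. The annotated Syt9 gene begins at 107370349 and that of Syt10 at 89841980, counted on its own strand. The Syt9 stretch therefore lies inside the annotated gene, and the Syt10 stretch lies partly inside it. Capitals mark the GC box GGGCGG, on either strand.
Syt6: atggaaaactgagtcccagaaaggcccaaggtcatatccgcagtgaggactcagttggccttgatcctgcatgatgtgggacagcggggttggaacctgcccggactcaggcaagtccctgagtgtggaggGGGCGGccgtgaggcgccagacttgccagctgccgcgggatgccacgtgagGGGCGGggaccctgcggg
Syt9: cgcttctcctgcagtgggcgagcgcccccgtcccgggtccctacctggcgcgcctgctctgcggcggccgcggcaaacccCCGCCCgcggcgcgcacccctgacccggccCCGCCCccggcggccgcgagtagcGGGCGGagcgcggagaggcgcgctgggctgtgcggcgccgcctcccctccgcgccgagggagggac
Syt10: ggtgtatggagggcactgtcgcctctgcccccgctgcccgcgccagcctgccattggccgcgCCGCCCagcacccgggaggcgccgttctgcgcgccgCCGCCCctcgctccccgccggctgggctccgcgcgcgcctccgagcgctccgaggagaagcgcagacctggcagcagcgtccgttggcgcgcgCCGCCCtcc

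The GC content of these stretches was 64.5% for Syt6, 82.5% for Syt9 and 79.0% for Syt10. RefSeq promoter windows of 300 bases were matched for 7 of the 10 genes, and these genes had 11 windows, with 3 for Syt6. The GC box was in 9 of the 11 windows and in 35.7% of all 32851 windows of the same length. The windows without it were that of Syt3 and 1 of the windows of Syt1. The cAMP response element TGACGTCA was in 0 of the 11 windows and in 1.79% of all windows, and the TATA box TATAAA was in 0 of 11 and in 13.6% of all windows. Both strands were searched. The Syt6 windows at 103574995-103575294 and 103575032-103575331 overlap, so the same bases were counted more than once. The GC content of the 11 windows ran from 44.0% to 79.3%, and the median over all windows was 52.7%. The part of GC content in the share with a GC box was not tested. These letter matches describe the windows only.

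The libraries were alike in depth and differed in composition. The summed FPKM of a library was 327896 to 404609, and between 16996 and 17413 genes had a value above 0. From the steps between low FPKM values, a level of 1 FPKM stood for about 15.1 to 17.9 fragments per kilobase of transcript (median 17.1). In 6 libraries the summed FPKM was above 350000, namely 3 Ctrl mice, 1 EtOH mouse and 2 EtOH-UA mice, and in the same 6 libraries long transcripts were lower relative to short ones. Against transcript length their slope was -0.26 to -0.06 (log2 level per log2 length), against -0.01 to 0.09 in the other 17 libraries. The lowest slopes belonged to the 2 EtOH-UA mice, with summed FPKM of 379518 and 404609. All 10 genes of the hippocampal marker list were measured in every group. Neurod6, a transcription factor of pyramidal neurons, was at 71.3 to 133 FPKM, and Prox1, which marks dentate granule cells, at 5.66 to 23.2 FPKM. Markers of the choroid plexus, which secretes cerebrospinal fluid and borders the hippocampus, varied widely. Their summed level was 40.4 to 3368 FPKM among the Ctrl, 131 to 6620 among the EtOH and 49.4 to 8532 among the EtOH-UA mice. In bulk tissue, fewer cells of a type and less RNA per cell cannot be told apart.

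Per transcript length, Syt1 was the most abundant of the 10 genes and Syt6 the least. Over the 23 mice, the Syt1 level had a lowest value of 332, a median of 414 and a highest value of 460 FPKM, and Syt1 made up 51.4% of the summed level of the 10 genes. Syt11, which binds no calcium through its first C2 domain, was next, at 145, 167 and 183 FPKM, or 21.2% of the sum. These 2 genes together were the larger part of the synaptotagmin transcripts in every mouse, since the lowest share of Syt1 was 49.2% and that of Syt11 was 19.7%.

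A middle group followed. Syt7 had a lowest level of 41.6, a median of 70.4 and a highest level of 83.3 FPKM. Syt5 ran from 52.5 to 80.7 FPKM with a median of 65.2. Its name and that of Syt9 have been exchanged in part of the literature, so the roles described for each are left out. Syt4, an activity-induced member of dense-core vesicles, ran from 36.4 to 63.9 FPKM with a median of 48.7. Syt7 and Syt5 could not be ordered, since Syt7 was the higher in only 16 of 23 mice, whereas Syt5 was above Syt4 in 23 of 23. Syt3 stood apart from its neighbours, at 18.2 to 24.8 FPKM with a median of 21.2, below every Syt4 value and above every Syt2 value.

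The 4 scarce members made up 0.233% to 0.669% of the sum on average. Syt2, the fast sensor of the hindbrain that parvalbumin interneurons of the forebrain also use, had a median of 5.50 FPKM and a range of 2.0 to 9.02. Syt10 had a median of 4.14 and a range of 2.41 to 6.10, Syt9 a median of 2.36 and a range of 1.56 to 3.55, and Syt6 a median of 1.85 and a range of 1.2 to 2.45. Syt2 was above Syt10 in 16 of 23 mice, Syt10 above Syt9 in 23 of 23 and Syt9 above Syt6 in 18 of 23, and the ranges of each of these pairs overlapped. The Syt6 level stood for about 32.2 fragments per kilobase of transcript, and counting alone would give a log2 SD of 0.12 on its longest transcript of 4416 bases and of 0.25 on 1 kilobase. Its observed SD within groups was 0.17.

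**Figure D1:**
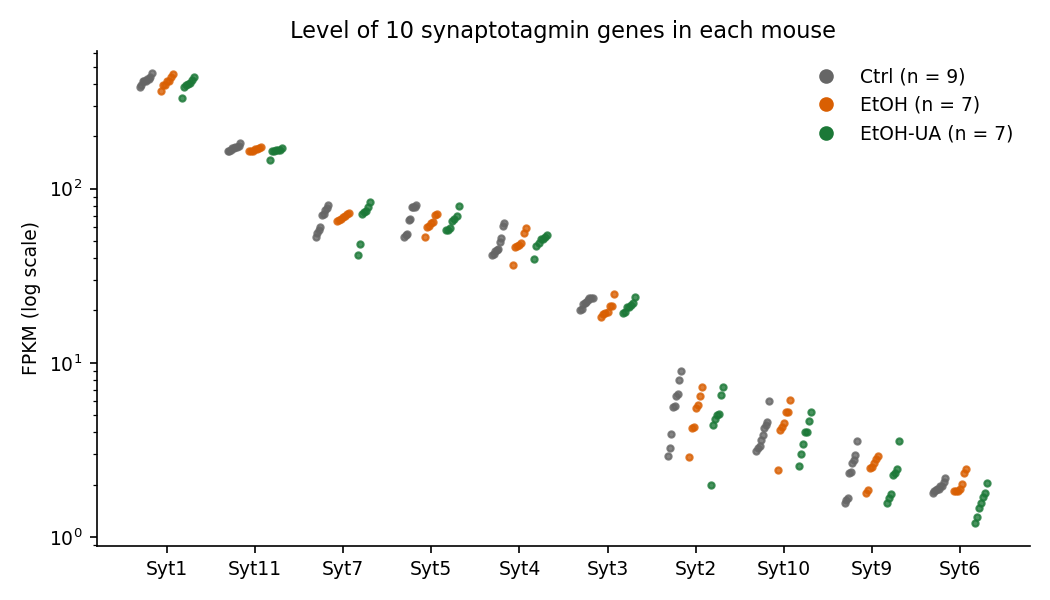
Level of each synaptotagmin gene in each mouse (FPKM, log scale), genes ordered by mean level, with 1 point per mouse coloured by group. Syt1 and Syt11 lie above all other members in every mouse, and Syt6 has the lowest mean, between 1.2 and 2.45 FPKM.

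The spread between mice differed among the members. Syt11 was the steadiest, with a log2 SD within groups of 0.06, followed by Syt1 at 0.10 and Syt3 at 0.11. Syt2 was the most variable at 0.53, with Syt9 at 0.36 and Syt10 at 0.35. The median over all genes tested was 0.19.

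Urolithin A mice had less Syt6 than EtOH mice, which is the difference the family was chosen on and is therefore given as a description without a test. Syt6, known best for its part in the acrosome reaction of sperm, encodes a synaptotagmin with N-terminal cysteines that link it into dimers, as do Syt3 and Syt10. In Ctrl mice the Syt6 level had a lowest value of 1.79, a median of 1.89 and a highest value of 2.18 FPKM. In EtOH mice these were 1.83, 1.88 and 2.45, and in EtOH-UA mice 1.2, 1.57 and 2.05. Of the 7 EtOH-UA mice, 6 lay below every EtOH mouse and below every Ctrl mouse, and the groups overlapped through the other one. The means were 1.94 ± 0.126 (SD, n = 9), 2.02 ± 0.257 (n = 7) and 1.58 ± 0.292 FPKM (n = 7). On the log2(FPKM + 0.1) scale, which understates changes of low genes, the difference between EtOH-UA and EtOH mice was -0.35 (SE 0.10), and between EtOH-UA and Ctrl mice it was -0.29 (SE 0.09). Both differences use the same EtOH-UA mice.

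The Syt6 level of EtOH-UA mice was also read by kind of library. The 2 EtOH-UA mice with a high summed FPKM had 1.3 and 1.78 FPKM, and the other 5 ran from 1.2 to 2.05 with a median of 1.57. Without the 6 libraries above 350000, a choice made after the data had been seen, the difference from EtOH mice was -0.35 (SE 0.12). With a score of thalamic markers as a covariate it was -0.35, with deep cortical markers -0.35, with markers of striatum and septum -0.36 and with hippocampal markers -0.35. The family was chosen on this difference in the same mice, so nothing is read from its being little changed. The summed level of the 10 thalamic markers was 55.4 to 68.9 FPKM for Ctrl, 50.4 to 75.9 for EtOH and 55.8 to 95.2 for EtOH-UA mice, and that of the 10 markers of striatum and septum 53.3 to 66.4, 60.9 to 67.2 and 60.6 to 73.8. Other lists had a lower median sum in the EtOH-UA than the Ctrl group, as did Syt6. It was 128 against 136 FPKM for deep cortical layers (r with Syt6 0.43), 419 against 470 for parvalbumin interneurons (r 0.38) and 512 against 558 for other inhibitory interneurons (r 0.44). In EtOH mice, whose Syt6 level was not lower on average than in Ctrl mice, these medians were 127, 433 and 545 FPKM. In the same order, the mean scores were -0.0205, -0.0361 and -0.0202 in EtOH mice and -0.0026, -0.0381 and -0.0257 in EtOH-UA mice. The part of the interneuron lists in the Syt6 difference was not tested. On the log2(FPKM + 0.1) scale, each of the 10 choroid plexus markers averaged lower in EtOH-UA than EtOH mice. Both of these groups averaged above the Ctrl group for each marker. In mean FPKM only Folr1 (5.85 against 6.06) and Cldn2 (2.83 against 2.85) were lower in EtOH-UA than EtOH mice. The other markers were higher, with Ttr, the most abundant, at 2119 against 1906 FPKM. Syt6 had an r of -0.19 with the score of these markers over the 23 mice. Their part in the Syt6 difference was not tested. Syt6 protein was not analysed here.

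**Figure D2:**
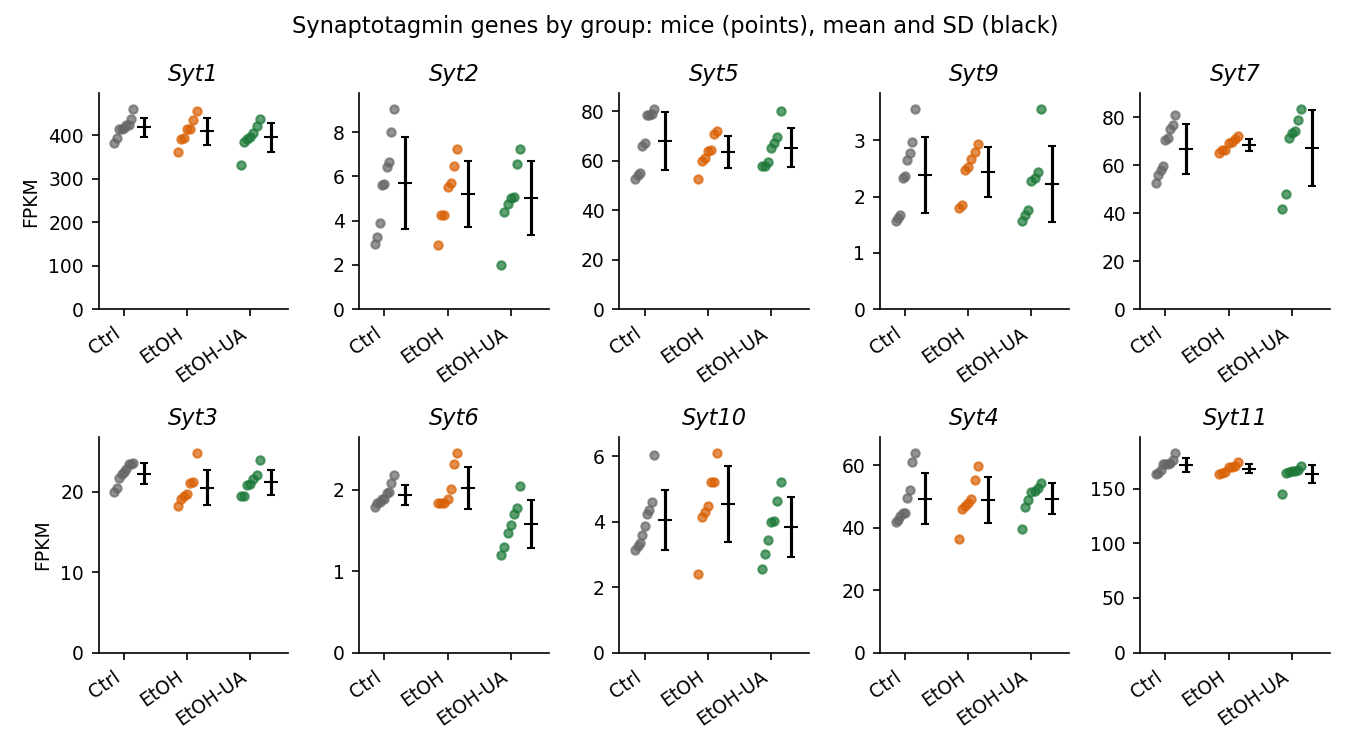
Level of each synaptotagmin gene (FPKM, axis from 0) in Ctrl (n = 9), EtOH (n = 7) and EtOH-UA (n = 7) mice, with 1 point per mouse and the mean ± SD in black. In the Syt6 panel 6 of 7 EtOH-UA mice lie below all mice of the other groups, and the groups overlap in every panel.

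Syt10 and Syt3 are also among the cysteine-linked members. Syt10, which in olfactory neurons governs the release of IGF-1, had a lowest value of 3.13, a median of 3.86 and a highest value of 6.05 FPKM in Ctrl mice. It had 2.41, 4.49 and 6.10 in EtOH mice and 2.56, 3.99 and 5.21 in EtOH-UA mice. The 3 groups overlapped, and 1 EtOH mouse was far below the other EtOH mice. The log2 difference of EtOH-UA from EtOH was -0.23 (SE 0.18) and that from Ctrl -0.08 (SE 0.17). Syt3, which acts in the endocytosis of AMPA receptors, had 19.97, 22.4 and 23.6 FPKM in the Ctrl group, 18.2, 19.7 and 24.8 in the EtOH group and 19.4, 21.0 and 23.9 in the EtOH-UA group. Its log2 difference of EtOH-UA from EtOH was 0.05 (SE 0.06), and 0.00013 with log2 summed FPKM as a covariate.

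Across the family, 7 of the 10 genes had a lower mean in EtOH-UA than in EtOH mice, against 48.8% of all genes tested. Since the family was chosen on this comparison, nothing is read from that count. The median of the 10 log2 differences was -0.06, and the median over all genes tested was 0.0033. Apart from Syt6, the differences lay between -0.23 (Syt10) and 0.05 (Syt3), with Syt9 at -0.15 (SE 0.18), Syt2 at -0.08 (SE 0.26), Syt7 at -0.07 (SE 0.13), Syt1 at -0.05 (SE 0.06), Syt11 at -0.04 (SE 0.04), Syt4 at 0.02 (SE 0.10) and Syt5 at 0.04 (SE 0.10). Without the 6 libraries above 350000 the count stayed at 7, but Syt2 (0.16) and Syt7 (0.14) turned to the higher side and Syt4 (-0.04) and Syt5 (-0.0014) to the lower. Against Ctrl mice, 9 of the 10 genes had a lower log2 mean in EtOH-UA mice, and the exception was Syt4 at 0.01 (SE 0.10). The share was 48.8% of all genes and 78.1% of the 82 other release genes. Syt7 was lower by only -0.02 (SE 0.12), and in FPKM its mean was higher, at 67.3 against 66.8. The log2 count was 6 of 10 without the 6 libraries above 350000 and 7 of 10 with array quality weights. At an adjusted p under 0.05, limma called 0 of 15986 genes (0%) in either comparison, and 523 genes (3.27%) and 492 genes (3.08%) had an unadjusted p under 0.05.

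Alcohol alone left the 10 genes without a called difference. Between EtOH and Ctrl mice, 0 of the 10 genes, and 0 of all 15986 (0%), had an adjusted p under 0.05 by limma with Benjamini-Hochberg adjustment, and the adjusted p of each of the 10 was 0.999. At an unadjusted p under 0.05 there was 1 of the 10, Syt3, and 3.05% of all genes, or 1.1% in its direction. These p-values set each difference against the spread between mice within groups. Mice were housed 4 per cage, and the cage of each mouse is not in the labels, so cage was not modelled. In EtOH mice 6 of the 10 genes had a lower mean and 4 a higher one, against 51.4% of all genes lower, although under quantile normalization Syt1, Syt4 and Syt11 turned to the higher side, and the median of the 10 log2 differences was -0.02.

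In each comparison the 2 groups overlapped for all 10 genes. Over all genes they did not overlap for 0.00626% between EtOH and Ctrl, 0.025% between EtOH-UA and EtOH and 0.0125% between EtOH-UA and Ctrl.

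Syt3 had the smallest unadjusted p of the 10 between EtOH and Ctrl mice. Of the 7 EtOH mice, 4 lay below every Ctrl mouse and 1, at 24.8 FPKM, lay above every Ctrl mouse, so the groups overlapped. The log2 difference was -0.12 (SE 0.06, 95% confidence interval -0.24 to -0.002), with an unadjusted p of 0.0466 and an adjusted p of 0.999 by limma. A two-sided exact permutation test over all 11440 splits gave p = 0.0597. The high EtOH mouse was the one with a summed FPKM of 366930. Without the 6 libraries above 350000 the difference was -0.13 (unadjusted p = 0.0165 by limma), and with the score of thalamic markers as a covariate it was -0.06 (unadjusted p = 0.257 by limma). Leaving out 1 mouse at a time moved the unadjusted p between 0.00333 and 0.123 by limma, and it was no longer under 0.05 in 13 of 23 cases, with 4 of the EtOH, 6 of the Ctrl and 3 of the EtOH-UA mice. The protein-coding gene 1700008O03Rik, at a mean of 0.851 FPKM, overlaps the start of Syt3 on the genome.

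For Syt6, the difference between EtOH and Ctrl mice was 0.05 (SE 0.09, 95% confidence interval -0.14 to 0.25), with p = 0.416 in the exact permutation test. This comparison uses the EtOH mice on which the choice rested. The fast sensors Syt1 and Syt2 differed by -0.03 (SE 0.06, interval -0.16 to 0.09) and -0.10 (SE 0.25, interval -0.61 to 0.41). Syt7 differed by 0.05 (interval -0.20 to 0.30) and Syt10 by 0.15 (interval -0.20 to 0.49). The interval of Syt11, from -0.11 to 0.05, was the narrowest of the family, and that of Syt2 was the widest. Exact permutation tests gave p-values of 0.0597 to 0.903 for the 10 genes.

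**Figure D3:**
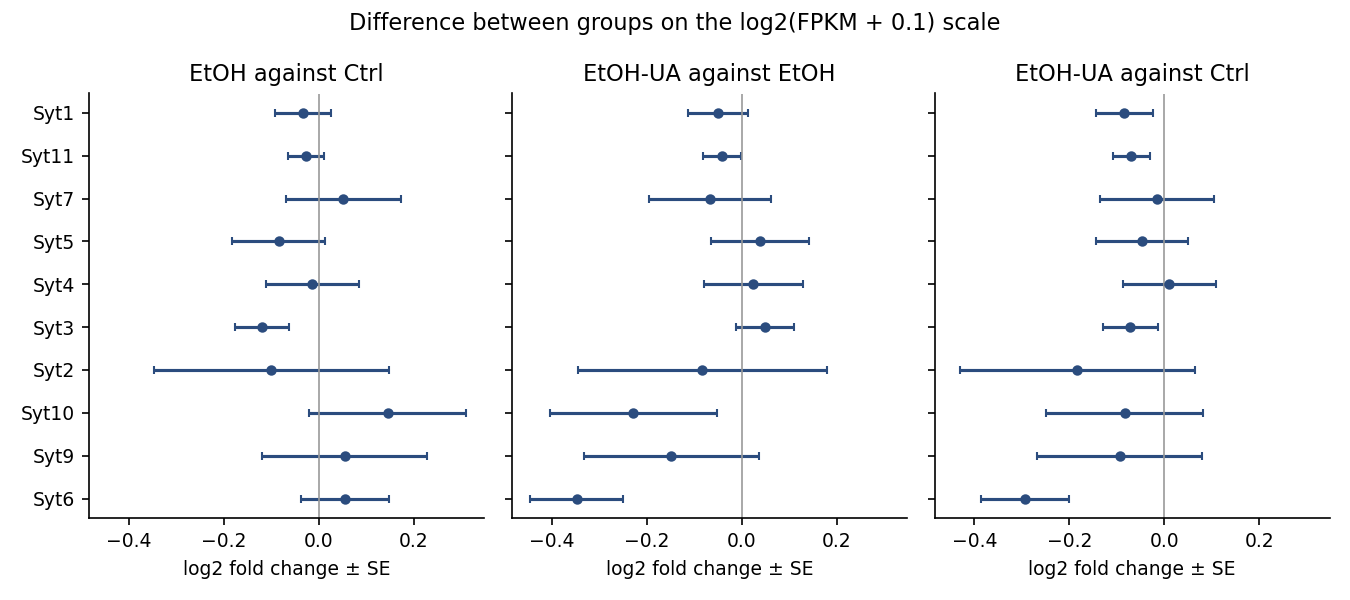
Log2 difference between groups with its SE for each synaptotagmin gene on the log2(FPKM + 0.1) scale, in 3 comparisons that share mice. Syt6 lies at -0.35 and -0.29 in the comparisons of EtOH-UA with EtOH and Ctrl mice and at 0.05 between EtOH and Ctrl mice.

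Syt7 had close means in the 3 groups, at 66.8 FPKM for Ctrl, 68.5 for EtOH and 67.3 for EtOH-UA mice, and unequal spread. Its Ctrl mice had a lowest value of 52.7, a median of 70.4 and a highest value of 81.0 FPKM, the EtOH mice had 65.1, 69.1 and 72.1, and the EtOH-UA mice had 41.6, 73.4 and 83.3. The coefficient of variation was 15.4% among Ctrl, 3.83% among EtOH and 23.7% among EtOH-UA mice. Within the EtOH-UA group, 2 mice lay below every EtOH mouse and 4 lay above every EtOH mouse. The 2 low mice, at 41.6 and 48.1 FPKM, were those with the highest summed FPKM, and the other 5 ran from 71.4 to 83.3. In Ctrl mice the 3 libraries with a high summed FPKM had 56.0, 58.1 and 59.9 FPKM for Syt7, against 52.7 to 81.0 in the other 6.

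Several members moved with the composition of the library, a relation examined after the data had been seen. Over the 23 mice, as deviations from group means, Syt7 had a Pearson's r of -0.81 with log2 summed FPKM (Spearman's rho -0.80, adjusted p = 0.0004 and 0.0002 over 20 relations, 100000 permutations). Without the 2 mice farthest from the median it was -0.84. Syt1 had r = -0.73 (rho -0.55, adjusted p = 0.00055 and 0.0158 by permutation) and -0.46 without those 2 mice, and Syt10 had r = -0.63 (rho -0.55, adjusted p = 0.0037 and 0.0158) and -0.53. Syt3 and Syt5 moved the other way, with r = 0.64 (rho 0.58, adjusted p = 0.0037 and 0.0139) and 0.59 (rho 0.64, adjusted p = 0.00548 and 0.00588), and 0.69 and 0.71 without those 2 mice. Syt6 had r = -0.28 (rho -0.25, adjusted p = 0.268 and 0.357) and -0.02 without those 2 mice, and Syt9 had r = -0.06. The Syt7 relation had the same sign within each group, at -0.74 for Ctrl, -0.68 for EtOH and -0.90 for EtOH-UA mice. The part of library composition in the levels of these genes was not tested.

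**Figure D4:**
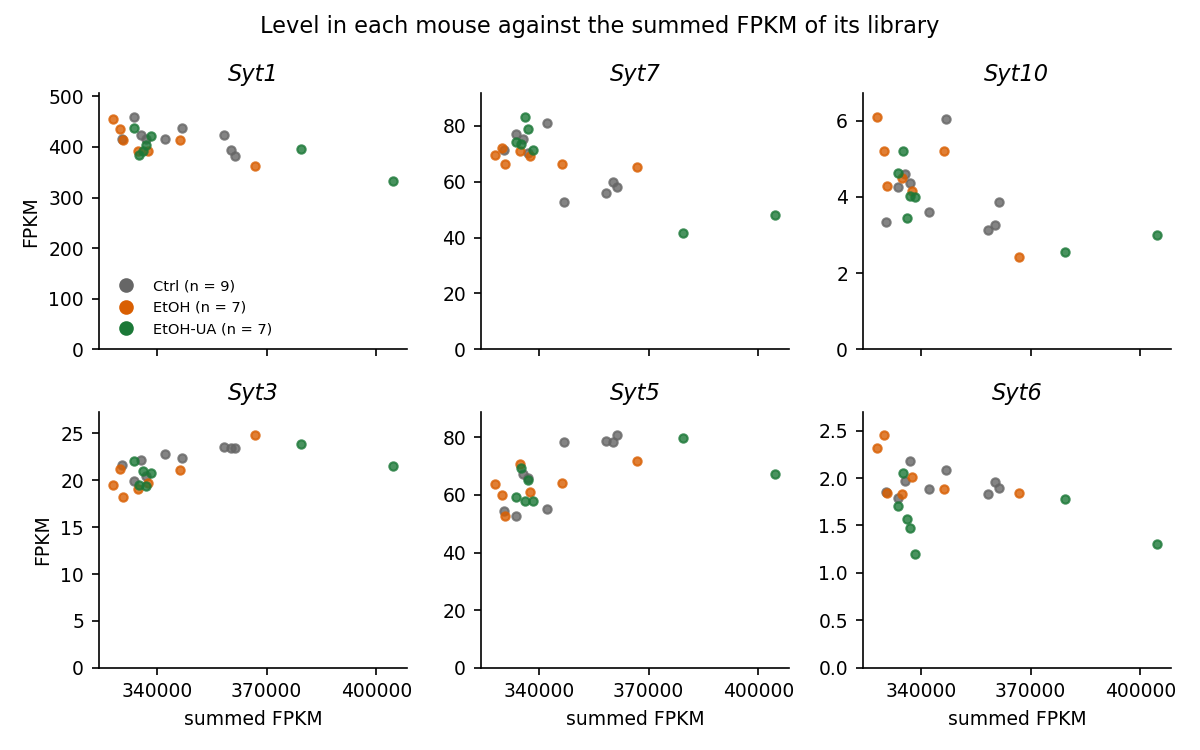
Level of 6 synaptotagmin genes (FPKM, axis from 0) against the summed FPKM of the library with 1 point per mouse coloured by group. Syt7, Syt1 and Syt10 are lower and Syt3 and Syt5 higher in libraries with a high sum, and the 2 EtOH-UA libraries farthest to the right have Syt7 at 41.6 and 48.1 FPKM.

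The members also moved with markers of cell types and regions. Each of the 10 genes was set against scores of 11 lists of 10 marker genes, as deviations from group means over the 23 mice, and 13 of the 110 relations had an adjusted p under 0.05 by permutation of Pearson's r. Genes measured in the same library share its composition. Syt7 rose and fell with the hippocampal list, whose most abundant genes were Neurod6, Neurod2 and C1ql2 (r = 0.79, rho 0.77, adjusted p = 0.000733 and 0.0022 by permutation), and without the 2 farthest mice r was 0.72. Syt5 moved against that list (r = -0.72) and with the parvalbumin interneuron list, led by Cplx1, Gad1 and Kcnc1, genes used by many neurons (r = 0.75, rho 0.68, adjusted p = 0.000733 and 0.0105 by permutation, 0.65 without the 2 farthest mice). Syt5 and Syt7 moved against each other (r = -0.67, rho -0.73, adjusted p = 0.0189 and 0.00675 over 45 pairs by permutation, -0.68 without the 2 farthest mice), within Ctrl (r = -0.88) and EtOH-UA mice (r = -0.77) but at 0.01 in EtOH mice.

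Syt1 had its strongest relation with the microglial list, which includes the complement genes C1qa and C1qb, and it was inverse (r = -0.82, rho -0.72, adjusted p = 0.000733 and 0.00495 by permutation, -0.80 without the 2 farthest mice). It held in each group, at -0.64 for Ctrl, -0.87 for EtOH and -0.90 for EtOH-UA mice. Syt3 moved against the thalamic list, led by Calb2, Ntng1 and Prkcd (r = -0.70, rho -0.62, adjusted p = 0.00234 and 0.0268 by permutation, -0.56 without the 2 farthest mice). Syt9 and Syt10 both moved with the list of striatum and septum, led by Ppp1r1b, Trpc4 and Rgs9. For Syt9 this was r = 0.62 (rho 0.62, adjusted p = 0.0147 and 0.0268 by permutation, 0.54 without the 2 farthest mice). For Syt10 it was r = 0.58 (rho 0.48, adjusted p = 0.0374 and 0.155 by permutation) and 0.38 without the 2 farthest mice.

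Syt9 and Syt10, whose promoter stretches are shown above, moved with each other (r = 0.63, rho 0.65, adjusted p = 0.0239 and 0.0225 over 45 pairs by permutation, 0.55 without the 2 farthest mice). The relation was 0.88 for Ctrl, 0.71 for EtOH and 0.36 for EtOH-UA mice. Syt2 and Syt11 had their strongest relation with the activity-regulated list, led by Egr1, Arc and Junb. For Syt2 it was r = 0.67 (rho 0.58, adjusted p = 0.00501 and 0.0581 by permutation) and 0.43 without the 2 farthest mice, and in EtOH mice alone 0.02. For Syt11 it was r = 0.72 (rho 0.55, adjusted p = 0.00154 and 0.0705 by permutation) and 0.44 without those mice, so both relations rested in part on them. Syt6 had no list at an adjusted p under 0.05, and its largest r was 0.44 with the other inhibitory interneurons, led by Cck, Sst and Cnr1 (rho 0.42, adjusted p = 0.159 and 0.191 by permutation, 0.36 without the 2 farthest mice). Syt4 had none either, with its largest at -0.41 for the hippocampal list (rho -0.34, adjusted p = 0.18 and 0.304 by permutation, -0.35 without the 2 farthest mice).

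**Figure D5:**
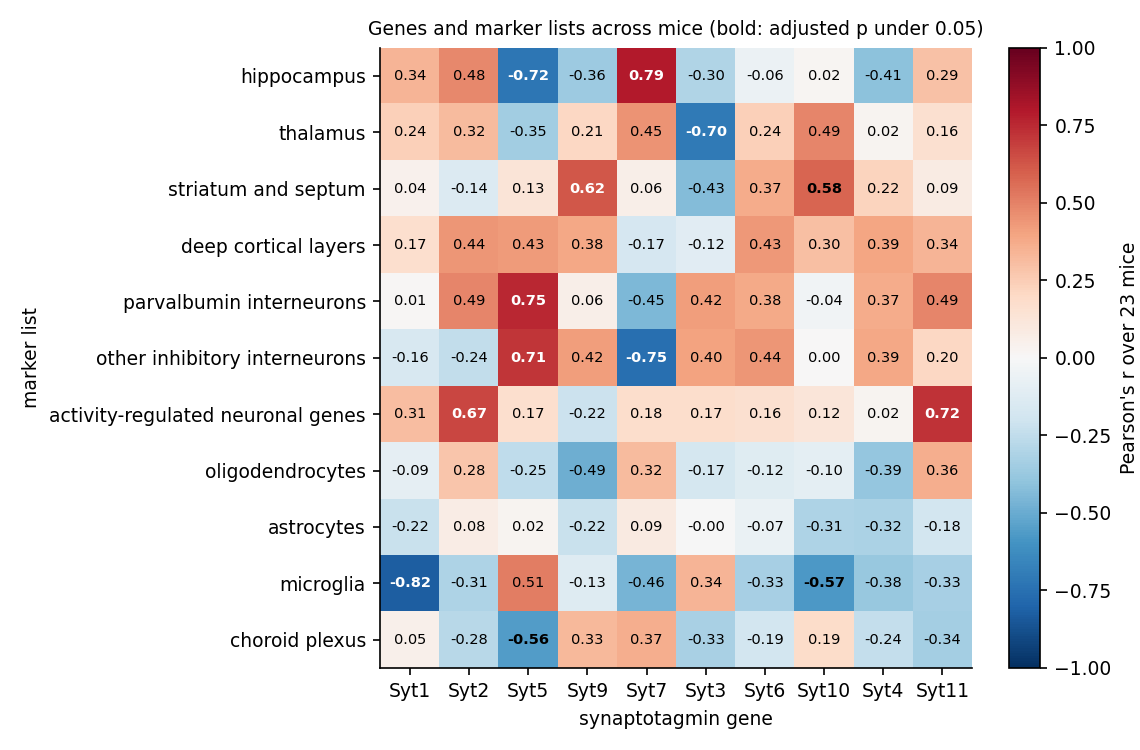
Pearson's r between each synaptotagmin gene (across) and the score of each marker list (down) over 23 mice, as deviations from group means, on a scale from -1 in blue to 1 in red, with bold numbers for an adjusted p under 0.05. Syt1 with microglia at -0.82 and Syt7 with hippocampus at 0.79 are the strongest, and the Syt6 column has no bold number.

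The genes whose levels followed a member most closely were found among 12903 genes that averaged 1 FPKM or more, by Pearson's r over the 23 mice of deviations from group means. For Syt6 they were Lhx6, a transcription factor of interneurons from the medial ganglionic eminence (r = 0.73), Egln3, an oxygen-sensing hydroxylase (r = 0.72), and Tmem186 (r = 0.71). These 3 were the only genes with an r of at least 0.7 for Syt6, whereas Syt7 had 915 such genes, Syt5 789 and Syt1 517. Lhx6 is also on the parvalbumin interneuron list and had a mean of 5.46 FPKM for Ctrl, 5.47 for EtOH and 5.21 for EtOH-UA mice. Syt7 followed Mrtfb (r = 0.96), Zfp609 (r = 0.95) and Cacna1a (r = 0.95), which encodes the pore of the P/Q-type calcium channel of presynaptic terminals. Syt2 followed Coro6 (r = 0.94), Kcnab3 (r = 0.92), a potassium channel subunit, and Scrt1 (r = 0.89). Syt1 followed Clcn3 (r = 0.92), Synj1 (r = 0.92), a phosphatase of vesicle recycling, and Gsk3b (r = 0.90). Syt5 followed Gap43 (r = 0.92), a growth-associated protein of axons, Prkar1b (r = 0.92) and Smim10l2a (r = 0.92).

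The remaining members had close followers too. Syt3 followed Copg1 (r = 0.90), Lmo1 (r = 0.89) and Nckipsd (r = 0.88). Syt4 followed Elavl4 (r = 0.91), a neuronal RNA-binding protein, Fgf12 (r = 0.90) and Dcaf12l1 (r = 0.89). Syt9 followed Igfn1 (r = 0.86), Ptpn14 (r = 0.86) and Mrap2 (r = 0.84), and 44 genes reached an r of 0.7. Syt10 followed Prune2 (r = 0.94), Unc5d (r = 0.91) and Mef2c (r = 0.90), an activity-dependent transcription factor. Syt11 followed Dlc1 (r = 0.84), Kif1a (r = 0.81), a motor of vesicle precursors, and Pi4ka (r = 0.81). These r values are descriptions over mice that share libraries.

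The rest of the release machinery had no called difference between EtOH and Ctrl mice. Of 85 genes listed for synaptotagmin relatives, SNARE proteins, priming, the active zone and vesicle recycling, 82 were tested and 0 had an adjusted p under 0.05 by limma. At an unadjusted p under 0.05 there was 1 gene, or 1.22% against 3.05% of all genes. It was Vamp1, a vesicle SNARE, which had 39.0, 48.9 and 58.5 FPKM (lowest, median and highest) in Ctrl and 39.6, 43.8 and 49.9 in EtOH mice, with a log2 difference of -0.14 (SE 0.06, unadjusted p = 0.0425 and adjusted p = 0.999 by limma). The core SNAREs that synaptotagmins engage were among the genes without a called difference. Snap25 differed by -0.04 (SE 0.06), Vamp2 by -0.03 (SE 0.05) and Stx1a by -0.15 (SE 0.13). The fusion clamp Cplx1 differed by -0.09 (SE 0.07), Cplx2, another, by 0.01 (SE 0.06), and Sv2a, a vesicle protein that binds synaptotagmin, by -0.05 (SE 0.04).

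The other C2-domain calcium sensors and relatives were also measured. Doc2a differed by -0.01 (SE 0.13) and Doc2b by -0.03 (SE 0.12) between EtOH and Ctrl mice. Among relatives outside the 10 genes, Syt12 differed by -0.08 (SE 0.06), Syt13 by -0.02 (SE 0.04), Syt16 by -0.07 (SE 0.07) and Syt17 by -0.02 (SE 0.07). None of these had an adjusted p under 0.05 by limma. Of the 12 active zone genes, 3 had a lower mean in the EtOH than the Ctrl group and 11 in the EtOH-UA than the EtOH group. Their medians were 0.05 and -0.07 on the log2 scale. The shares of lower genes were 51.4% and 48.8% over all genes tested and 65.85% and 63.41% over the 82 release genes. Other lists differed, with 16 and 10 of 20 SNARE genes and 17 and 13 of 21 vesicle genes lower. Of 8 synaptotagmin-like and extended synaptotagmin genes, 3 and 6 were lower. Nothing is read from a single list. Both comparisons share the EtOH mice, and over the 82 genes the median was -0.02 in each of them.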

How the data were processed

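The authors aligned hippocampal RNA-seq reads to the mouse genome mm10 and quantified genes with RSEM, and they deposited FPKM values, rounded to 2 decimals, for 19733 genes in 23 mice. The paper's methods name Bowtie2 and RSEM, and the submitters' processing notes name HISAT2 2.1.0, Bowtie2 2.2.5, RSEM 1.2.8, StringTie and DESeq. The sample annotations name total RNA and the methods poly(A)+ RNA. FPKM are not counts, so a count test was not run. Each column name gave the group of its mouse but no replicate number, and 0 columns were left unused.

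Values were transformed as log2(FPKM + 0.1), and the 15986 genes that averaged 0.1 FPKM or more entered a single limma fit (version 3.58.1, R 4.3.3) of the 3 groups, with an intensity trend in eBayes. Benjamini-Hochberg adjustment covered every gene tested. For single genes, two-sided exact permutation tests were run in SciPy 1.17.1 and Python 3.11.15, and correlations used 100000 permutations of deviations from group means, so the smallest p they can give is 1e-05. Scores are means of log2 levels over a list. The analysis was tested on simulated data before use. The 10 genes, the lists and the comparisons were chosen with earlier results of these data known, so only EtOH against Ctrl was tested for the 10 genes.

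Genes named outside the 10 were Snap25, Vamp2, Stx1a, Cplx1, Cplx2, Doc2a, Doc2b, Sv2a, Syt12, Syt13, Syt16 and Syt17, genes of the release lists with an unadjusted p under 0.05 between EtOH and Ctrl, the 3 genes with the highest r for each of the 10, and the 3 most abundant genes of each list that had the largest r. Prox1 and 1700008O03Rik were named after their values were seen. Some genes that this rule names are not reported here. Alternatives were other pseudocounts and filters, only the groups compared, upper-quartile and quantile scaling, robust eBayes, array quality weights, 4 region scores as covariates and each mouse left out. Covariates for summed FPKM and length slope, and the omission of libraries above 350000, were added after the data had been seen. Promoter sequences are from RefSeq on GRCm38.p6.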

Additional observations from a re-analysis of the deposited data

Results flagged for a closer look

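Of the 30 sets of values formed by the 10 genes in 3 groups, 3 held a mouse far from the others of its group, where chance gives about 1 in 20, or 1.5 sets. Syt11 had an EtOH-UA mouse at 145 FPKM, with the next at 164, so that 0.764 of the group's whole range lay in that gap. Syt2 had an EtOH-UA mouse at 2.0 FPKM, with the next at 4.41 (0.611 of the range). Syt10 had an EtOH mouse at 2.41 FPKM, with the next at 4.14 (0.58 of the range). The low Syt11 and Syt2 values belong to 1 library, that with the highest summed FPKM of all 23 (404609), and the low Syt10 value to the EtOH library with a summed FPKM of 366930, and the part of library composition was not tested.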

How the results depend on the processing

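The Syt6 difference between EtOH-UA and EtOH mice lay between -0.39 and -0.23 with other settings and between -0.41 and -0.29 with 1 mouse left out. Since the family was chosen on this difference in the same mice, nothing is read from its unchanged sign. Of 1130 recomputed log2 differences of the 10 genes, 73 had the opposite sign, in the 9 genes other than Syt6. Of these, 22 were between EtOH and Ctrl, 27 between EtOH-UA and EtOH and 24 between EtOH-UA and Ctrl mice. Under quantile normalization the differences of Syt1 (-0.16) and Syt11 (-0.11) between EtOH-UA and EtOH mice moved by slightly more than the gene's log2 SD within groups (0.104 and 0.0556). Without libraries above 350000, Syt2 and Syt7 turned to 0.16 and 0.14 against EtOH and to 0.11 and 0.11 against Ctrl mice. The sign changes between EtOH and Ctrl mice were Syt1 (0.0272), Syt4 (0.0228) and Syt11 (0.0220) with quantile normalization, Syt4 (0.0581) with array quality weights, Syt7 (-0.0444) and Syt9 (-0.00753) with the thalamic score, Syt4 (0.00275) with the deep cortical score, Syt9 (-0.0519) with the striatal score, Syt4 (0.0257) and Syt7 (-0.0432) with the hippocampal score, Syt7 with log2 summed FPKM (-0.0182) or length slope (-0.0183), and Syt4 (0.102), Syt5 (0.00506) and Syt7 (-0.0319) without libraries above 350000. With 1 mouse left out, Syt2 ran from -0.207 to 0.0283, Syt4 from -0.0646 to 0.0534 and Syt9 from -0.0127 to 0.129. The count of the 10 genes with an unadjusted p under 0.05 between EtOH and Ctrl was 0 with only the 2 groups compared and 0 to 1 with 1 mouse left out. That of the release genes was 2 at a pseudocount of 1, 2 with summed FPKM or length slope as covariate, 2 without libraries above 350000, 0 with upper-quartile scaling, 7 with array quality weights, and 0 to 4 with 1 mouse left out. The genes called at an adjusted p under 0.05 were 1 with array quality weights between EtOH and Ctrl, and 0 to 1 in each comparison with 1 mouse left out. The cause of these changes was not tested. At about 17.1 fragments per kilobase at 1 FPKM, Syt6, Syt9 and Syt10 rest on few fragments. No paired analysis was possible because the columns carry no replicate numbers.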
